A study of Mus musculus with 45 samples.

Results

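Olfactory receptor genes (Olfr genes in the mouse) were followed across 4 RNA-seq experiments on mouse embryonic stem cells. The genes described are the 70 of 1410 Olfr genes, among 55401 genes in all, whose mean normalized count reached 5 in at least 1 of 4 sorted cell populations. The values of those sorted populations therefore chose the genes, and they are given below as a description with no test. The other 1340 Olfr genes stayed under 5 in all 4 populations.

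The study holds 45 libraries in 15 groups of 3. EHMT2 is a methyltransferase that places H3K9me2, a repressive histone mark, together with EHMT1. In 3 experiments the cells were KH2-derived mESCs of strain BL6/129 whose endogenous Ehmt2 gene carries a degron tag and an mCherry reporter (EHMT2-dTAG), and the DMSO controls carry the same allele. The compound dTAG-13 ("dTAG") removes the tagged protein. The time course compared DMSO with dTAG after 24 h and after 7 d. The washout experiment compared DMSO for 15 d, dTAG for 15 d, and 7 d of dTAG followed by 8 d without it (Recovery). Libraries of both experiments came from 3 clones and a strand-specific mRNA kit. In the sorting experiment the EHMT2-dTAG cells also carried a MERVL-driven GFP reporter, picked as single colonies, and were treated for 72 h with DMSO or dTAG. Sorting on GFP gave a negative population (called mESC here) and a positive one, the 2-cell-like cells (2CLC), from which low-input libraries were made. Their replicates are numbered with no clone named. The fourth experiment compared WTJ1 mESCs (WT) with DPPA4KO mESCs (KO), each after 48 h of DMSO or of UNC0638, an inhibitor of EHMT1 and EHMT2, with 3 clones per line. DPPA4 is a DNA-binding protein of early embryos and pluripotent cells. All cells grew in FBS and LIF, on a layer of mouse embryonic fibroblast feeders.

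Olfactory receptors are G protein-coupled receptors that detect odorants. In the nose each mature olfactory sensory neuron expresses a single receptor gene from a single allele, and the remaining Olfr genes lie in compact chromatin rich in repressive histone methylation. Most Olfr genes sit in clusters of neighbours, and the coding part usually lies in 1 exon behind short noncoding exons. 2-cell-like cells are a rare state in mESC cultures that share transcripts with the 2-cell embryo, among them the repeat MERVL and the Zscan4 genes.

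The 70 members comprised 61 genes annotated as protein coding (of 1138 Olfr genes of that type), 4 unprocessed pseudogenes (of 200), 3 transcribed unprocessed pseudogenes (of 16) and 2 polymorphic pseudogenes (of 56). Of the 60 members whose coding part lies in 1 segment (GENCODE vM21, GRCm38), the median coding length was 939 bases, with a range from 909 to 1038 bases. Coding bases made up a median of 28.8% of a member's exon bases. All 60 coding sequences held an in-frame match to a pattern of 18 bases, read on the coding strand only: ATG, 6 bases of any kind, GANNGNT, and 2 bases of any kind. It corresponds to the conserved stretch at the inner end of the third membrane helix, which marks the family. The pattern was also present in 1043 of 1117 other Olfr coding sequences (93.4%) and in 0 of 231 coding sequences of the Vmn1r family of vomeronasal receptors (0.0%). The members thus carry the hallmark that most of their family carries.

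The windows below show this hallmark, in capitals, with 30 bases on either side, for the 5 leading members in dTAG 2CLC, for Olfr1425 of the longest run of neighbours, and for Olfr814. They were chosen to show which transcripts can be told apart by their reads.
Olfr376 (chr11:73375081-73375158, plus strand): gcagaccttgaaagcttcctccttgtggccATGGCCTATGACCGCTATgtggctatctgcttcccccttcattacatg
Olfr787 (chr10:129462993-129463070, plus strand): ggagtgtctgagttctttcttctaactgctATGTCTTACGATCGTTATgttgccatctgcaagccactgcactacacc
Olfr881 (chr9:37992827-37992904, plus strand): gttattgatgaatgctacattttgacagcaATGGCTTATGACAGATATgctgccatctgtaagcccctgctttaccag
Olfr815 (chr10:129902316-129902393, minus strand): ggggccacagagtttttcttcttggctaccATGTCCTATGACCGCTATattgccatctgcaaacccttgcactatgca
Olfr814 (chr10:129874363-129874440, minus strand): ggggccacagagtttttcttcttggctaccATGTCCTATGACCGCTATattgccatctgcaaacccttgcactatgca
Olfr450 (chr6:42817800-42817877, plus strand): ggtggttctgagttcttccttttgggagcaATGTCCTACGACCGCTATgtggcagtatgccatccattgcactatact
Olfr1425 (chr19:12074238-12074315, minus strand): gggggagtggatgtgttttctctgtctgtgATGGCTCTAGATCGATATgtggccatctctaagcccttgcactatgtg
The windows of Olfr376, Olfr787, Olfr881 and Olfr450 differ from each other at many bases, whereas those of the neighbours Olfr814 and Olfr815 are identical over all 78 bases.

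The same question was put to whole transcripts, since the authors placed a read with many matches at 1 random place. For each member the share of 100-base windows that also occur in a transcript of another gene was computed. It was 0 for 30 members, under 10% for 57, between 10% and 30% for 10, and over 30% for 3. The 3 were Olfr1565 (100% of windows) and Olfr1506 (93.9%), which share their sequence with each other, and Olfr1344 (72.0%), which shares it with Gm20715. For Olfr881 and Olfr450 it was 0, for Olfr376 0.8%, for Olfr787 0.9%, and for Olfr815 27.1%. The values of Olfr1506, Olfr1565 and Olfr1344 are thus uncertain as single genes, and those of Olfr815 and Olfr814 in part. Only exact matches to annotated transcripts were counted. Matches to repeats or to other genome sequence, and matches with mismatches, were not examined, so a share of 0 does not show that a member's reads are unique.

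The highest means of the whole family were in GFP-positive cells. For Olfr376 (chr11:73371246-73377836, plus strand, 3 exons) the authors' mean normalized count was 0.946 in DMSO mESC, 394 in DMSO 2CLC, 18.8 in dTAG mESC and 1444 in dTAG 2CLC. For Olfr787 on chromosome 10 the same 4 means were 2.52, 436, 18.4 and 940.1. For Olfr881 on chromosome 9 they were 0, 222, 16.6 and 711. These 3 receptor genes were near 0 in DMSO-treated GFP-negative cells, high in GFP-positive cells, and higher again with dTAG in both populations.

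For Olfr815 on chromosome 10 the means were 0.233 in DMSO mESC, 191 in DMSO 2CLC, 10.0 in dTAG mESC and 626 in dTAG 2CLC. For Olfr450 on chromosome 6 they were 0.466, 163, 8.76 and 381. These 5 genes held 54.1% of the summed normalized counts of all members in DMSO 2CLC and 68.0% in dTAG 2CLC. The next in order in dTAG 2CLC were Olfr329 (206), Olfr1425 (134), Olfr1277 (132), Olfr1276 (116), Olfr118 (105) and Olfr374 (96.5), and each was at or under 0.823 in DMSO mESC. The deposited tables hold group means only for this experiment, so no error can be set on a single value or on the order.

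Levels of different genes can be compared only per length. Per kilobase of exon (GENCODE vM21) the dTAG 2CLC mean was 432 for Olfr376, 217 for Olfr815, 201 for Olfr450, 190 for Olfr787 and 168 for Olfr881. The pseudogene Olfr848-ps1 came next at 84.6 per kilobase, and Olfr1425 followed at 61.3. So on this scale Olfr376 stayed first while Olfr787 moved behind Olfr815 and Olfr450.

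Over the 70 members the summed normalized count was 249.77 in DMSO mESC, 2596.69 in DMSO 2CLC, 363.38 in dTAG mESC and 6029.49 in dTAG 2CLC. Of the 70, 44 were listed at 0 in DMSO mESC, and every one was above 0 in DMSO 2CLC. A gene was counted as past the fold when log2 of the ratio of (mean + 1) was at least 1 in size, a difference of at least 2-fold on that scale. In DMSO, 62 members were higher and 3 lower in 2CLC than in mESC, while 19.0% of 20783 genes were higher and 9.61% lower. With dTAG the counts were 61 higher and 3 lower of 70, beside 17.4% and 8.54% of 20789 genes. The median log2 difference of the members was 2.7 in DMSO and 3.16 with dTAG, beside 0.01 and -0.03 over all genes at a mean of 5 or more. Members were chosen on these same means, so nothing is read from these counts.

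The sums of the 1340 other Olfr genes had the same order at a far lower level. They were 32.3 in DMSO mESC, 182.6 in DMSO 2CLC, 88.0 in dTAG mESC and 226.9 in dTAG 2CLC. In 2CLC these sums differed by less than 2-fold between DMSO and dTAG, with 185 and 176 genes above 0. Scaling to equal totals, by 0.994 in DMSO 2CLC and 0.84 in dTAG 2CLC, brings them closer. The larger difference in 2CLC was that of the members, at 2596.69 and 6029.49, which these same means chose. The threshold did not fall in a gap. The 3 genes just under it were Olfr846 (highest sorted mean 4.82), Olfr949-ps1 (4.86) and Olfr602-ps1 (4.90), and the 3 just over it were Olfr293 (5.18), Olfr596 (5.41) and Olfr31 (5.42).

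**Figure D1:**
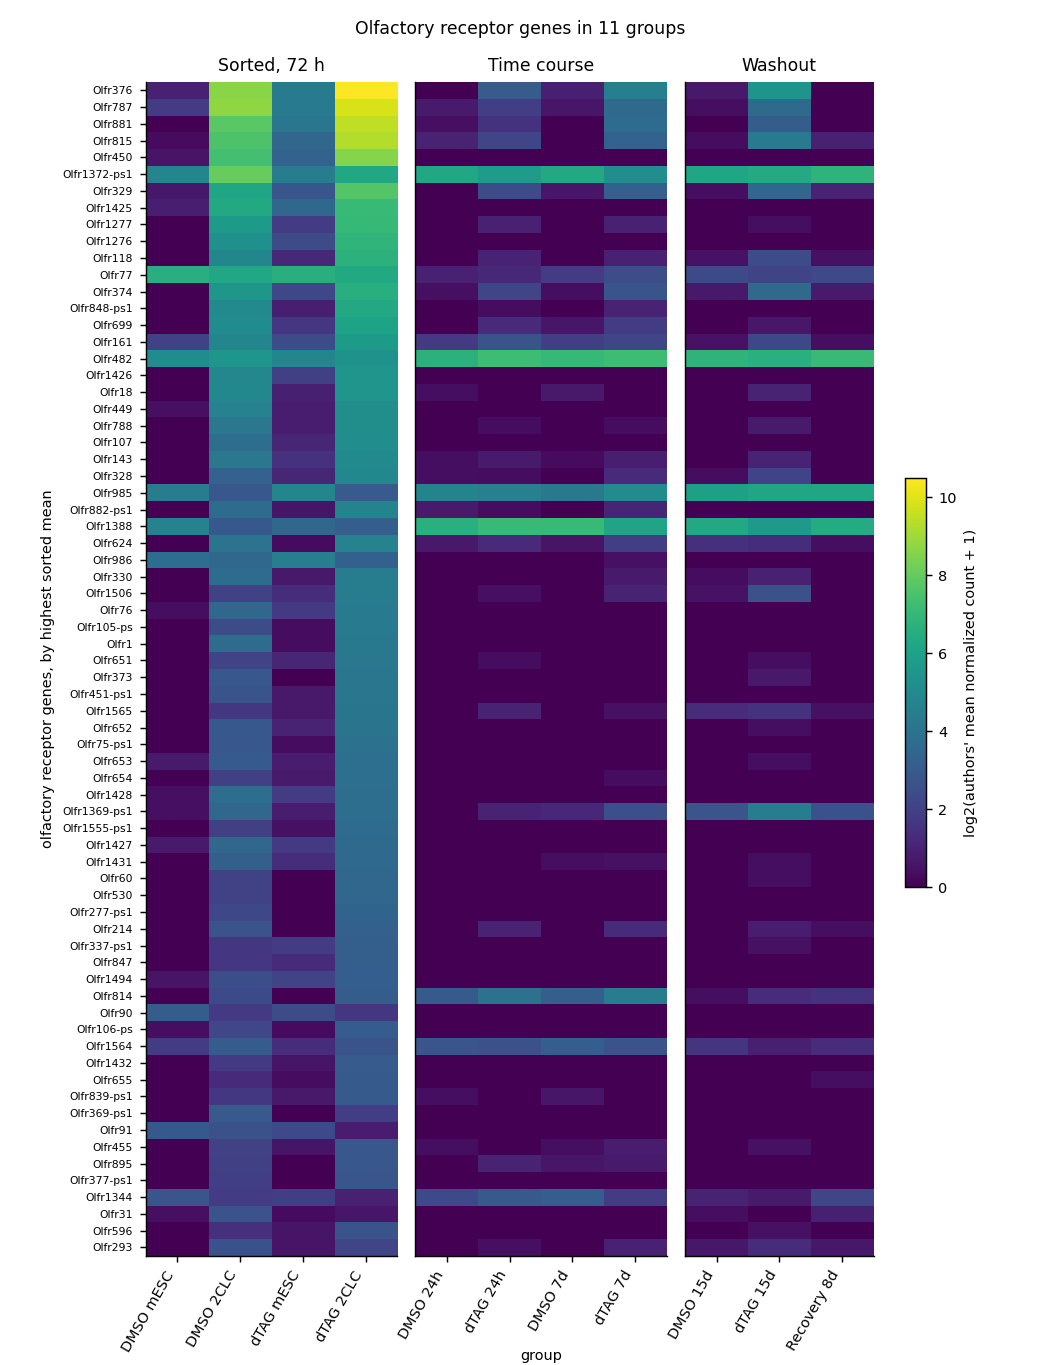
Each row is 1 of the 70 olfactory receptor genes, ordered by its highest sorted mean, and each column is 1 of 11 groups in 3 experiments that were normalized apart. Colour gives log2 of the authors' mean normalized count plus 1. The upper rows are bright in the 2CLC columns and dark in DMSO mESC, and 24 rows are at 0 in all 7 time course and washout columns.

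Not every member followed that order. For 8 members the DMSO 2CLC mean was not at least 2-fold above DMSO mESC. Olfr77 had means of 96.9 in DMSO mESC, 75.9 in DMSO 2CLC, 95.4 in dTAG mESC and 82.8 in dTAG 2CLC. Olfr482 had 33.7, 45.0, 27.6 and 41.2 in the same order. Olfr1388 had 24.2, 6.52, 10.3 and 7.93, and Olfr985 had 20.9, 6.24, 27.5 and 7.14. The other 4 of these genes, Olfr986, Olfr90, Olfr91 and Olfr1344, stayed at or under 21.7 in all 4 populations. Olfr1388, Olfr985 and Olfr90 were the 3 members past the fold in the lower direction.

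For some of these genes nearly the same values were listed for an overlapping gene, to which the reads may belong. Olfr77 overlaps the processed pseudogene Gm7808 on the opposite strand over 387 exon bases, which is the whole of Gm7808. In the sorted populations Gm7808 had means of 95.6, 74.8, 95.2 and 82.3, close to those of Olfr77 in each population. In the time course and washout libraries, from the strand-specific kit, Gm7808 lay between 1362 and 2030 while Olfr77 lay between 0.962 and 4.55. Without strand, reads from Olfr77 and Gm7808 cannot be told apart. Olfr482 covers all 357 bases of Gm44870 on the same strand, and Gm44870 had sorted means of 32.8, 42.3, 25.1 and 40.9. Their values cannot be separated either. Olfr1344 shares 1934 exon bases with Gm20715, and Olfr31 lies opposite an antisense gene, Gm48860, over 951 bases.

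A further exception was Olfr1372-ps1, a transcribed pseudogene on chromosome 11. Its means were 26.5 in DMSO mESC, 262 in DMSO 2CLC, 20.2 in dTAG mESC and 77.6 in dTAG 2CLC. It was thus high in GFP-positive cells like most members, but lower with dTAG than with DMSO in both populations.

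The next question was how the members differed between dTAG and DMSO within a sorted population. In 2CLC, 34 members were at least 2-fold higher with dTAG and 3 lower, beside 6.73% and 4.7% of 20934 genes. The median log2 difference was 0.93, against -0.00 over all genes. Members were chosen on these same means, and 64 of them reached 5 in dTAG 2CLC but 47 in DMSO 2CLC. Nothing is therefore read from these counts. Among the 62 members that were higher in DMSO 2CLC than in DMSO mESC, the ratio of dTAG to DMSO in 2CLC ranged from 0.102 to 6.95, with a median of 2.15 and quartiles of 1.63 and 3.17. It was above 2 for 36 of the 62 and under 1 for 6. The 6 were Olfr1372-ps1, Olfr31, Olfr369-ps1, Olfr293, Olfr1564 and Olfr1428. The 5 largest log2 differences in 2CLC were those of Olfr1506 (2.39), Olfr1565 (2.36), Olfr651 (2.01), Olfr118 (1.90) and Olfr376 (1.87). At the other end were Olfr31 (-2.05), Olfr91 (-1.84), Olfr1372-ps1 (-1.75), Olfr369-ps1 (-1.0) and Olfr293 (-0.44). Of these 10 genes, 7 had a mean under 7 in DMSO 2CLC.

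In GFP-negative mESC, 24 members were at least 2-fold higher with dTAG and 1 lower, beside 7.41% and 3.23% of 19472 genes. The largest differences belonged to Olfr881 (log2 4.13), Olfr376 (3.35), Olfr815 (3.16), Olfr450 (2.74) and Olfr1425 (2.67), and the gene past the fold in the lower direction was Olfr1388 (-1.16). The scale matters for this population: only 16 members reached a mean of 5 in either mESC group, and of these 7 were higher and 1 lower. The sorted means chose the members, so nothing is read from these counts either. The sum over the 62 members that were higher in 2CLC came to 1.71% of the 2CLC sum in DMSO and to 2.88% with dTAG. Without Olfr1372-ps1 these shares were 0.694% and 2.57%. The corresponding shares were 0.574% and 3.67% for Zscan4c, a gene of the 2-cell stage, and 0.419% and 2.42% for MERVL-int, the internal part of the MERVL repeat. In mESC the dTAG to DMSO ratio of the sum over the 62 members was 4.07, and in 2CLC it was 2.41. Without Olfr1372-ps1 these ratios were 9.86 and 2.66. MERVL-int had ratios of 11.4 and 1.98, and Zscan4c had 7.58 and 1.18. In these populations, as in unsorted cells, fewer cells of a type and less RNA per cell cannot be told apart. The part of GFP-positive cells left in the GFP-negative sort was not tested.

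**Figure D2:**
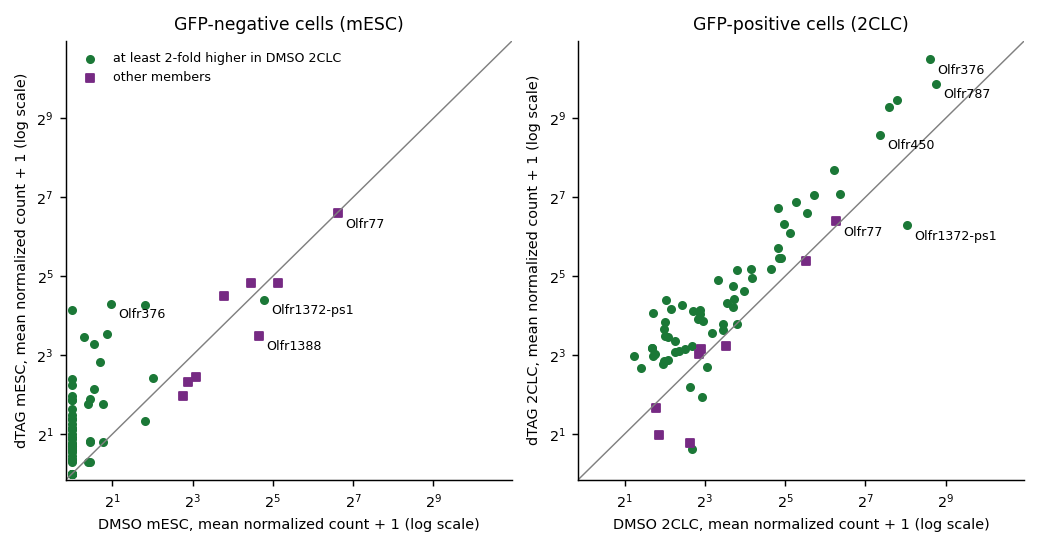
Authors' mean normalized count plus 1 with DMSO (horizontal) and dTAG (vertical), on log axes, for the 70 members in GFP-negative cells (left) and GFP-positive cells (right). The diagonal marks equal means. Circles are the 62 members at least 2-fold higher in DMSO 2CLC than in DMSO mESC and squares are the other 8. In 2CLC 59 of 70 members lie above the diagonal, and Olfr1372-ps1 lies well under it.

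Other markers moved between the same populations. All 17 genes of a 2-cell list (the Zscan4, Usp17l and Tcstv genes among them) were higher in 2CLC in both treatments, and their sum went from 1480 to 273000 in DMSO and from 17300 to 459000 with dTAG. Of 8 mESC genes, 4 were lower in 2CLC in DMSO (Esrrb, Klf4, Sox2 and Tfcp2l1), and the sum was 28600 in 2CLC and 50700 in mESC. Of 8 feeder fibroblast genes, 6 reached a mean of 5 and 4 of these were higher with dTAG, in mESC and in 2CLC alike. Their sum over all 8 was 407 in DMSO mESC, 970 in DMSO 2CLC, 722 in dTAG mESC and 1640 in dTAG 2CLC, and the defining genes Lum and Dcn stayed at or under 4.59. The part of feeder RNA in the members' values was not tested. Totals over all genes ran from 8706492 to 11520046 normalized counts, and scaling to equal totals would multiply values by 1.11 in both mESC groups, 0.994 in DMSO 2CLC and 0.84 in dTAG 2CLC.

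The members were spread over 12 chromosomes. Chromosome 7 held 13 of its 293 Olfr genes, chromosome 9 held 12 of 173, chromosomes 11 and 19 held 9 of 104 and 9 of 91, and chromosome 17 held 7 of 63. Chromosome 2 has the most Olfr genes, 373, of which 5 were members. On chromosome 6 it was 5 of 36 and on chromosome 8 it was 2 of 5. Of the chromosome 7 members, 7 lie in the region of the class I receptors, the group that resembles fish odorant receptors.

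When members within 100 kb of each other were joined, they formed 40 runs, of which 16 held at least 2 members and 46 members in all. The other 24 members stood alone. The longest run spanned 159.4 kb of chromosome 19 (chr19:12073234-12232596) and held 8 members among 9 Olfr genes: Olfr1425, Olfr1426, Olfr1427, Olfr1428, Olfr76, Olfr1555-ps1, Olfr1431 and Olfr1432. Its summed mean was 2.2 in DMSO mESC, 157.71 in DMSO 2CLC, 23.53 in dTAG mESC and 249.57 in dTAG 2CLC. Within it the dTAG 2CLC mean ran from 7.13 for Olfr1432 to 134 for Olfr1425.

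On chromosome 7 all 5 Olfr genes of chr7:104550133-104601779 (Olfr651, Olfr652, Olfr653, Olfr654 and Olfr655) were members. Their sum was 0.71 in DMSO mESC, 21.06 in DMSO 2CLC, 3.85 in dTAG mESC and 66.52 in dTAG 2CLC. Per kilobase of exon the dTAG 2CLC mean was 10.7 for Olfr651 and between 2.81 and 4.26 for the other 4.

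On chromosome 11 the run of chr11:73371246-73409887 was uneven. It held 4 members of 4 Olfr genes, and Olfr376 at 1444 in dTAG 2CLC stood beside Olfr1 (17.7), Olfr75-ps1 (14.2) and Olfr377-ps1 (5.90). A second run on this chromosome, chr11:58527186-58555636, held Olfr330 (20.4), Olfr329 (206) and Olfr328 (28.7). On chromosome 6 Olfr450 (381) lay between Olfr451-ps1 (16.3) and Olfr449 (35.6). On chromosome 17 Olfr105-ps (18.4), Olfr106-ps (7.40) and Olfr107 (34.6) were 3 of 4 Olfr genes in their span. Per kilobase of exon, Olfr376 was at 432 and its neighbours between 5.12 and 5.29, Olfr450 at 201 and its neighbours at 17.4 and 17.6, and Olfr329 at 50.6 and its neighbours at 7.0 and 9.82. The chromosome 17 run was closer together, with Olfr107 at 8.24, Olfr105-ps at 4.86 and Olfr106-ps at 3.84 per kilobase. Neighbours were not chosen apart from the sorted means, and the counts of runs describe the list and are no test of clustering.

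**Figure D3:**
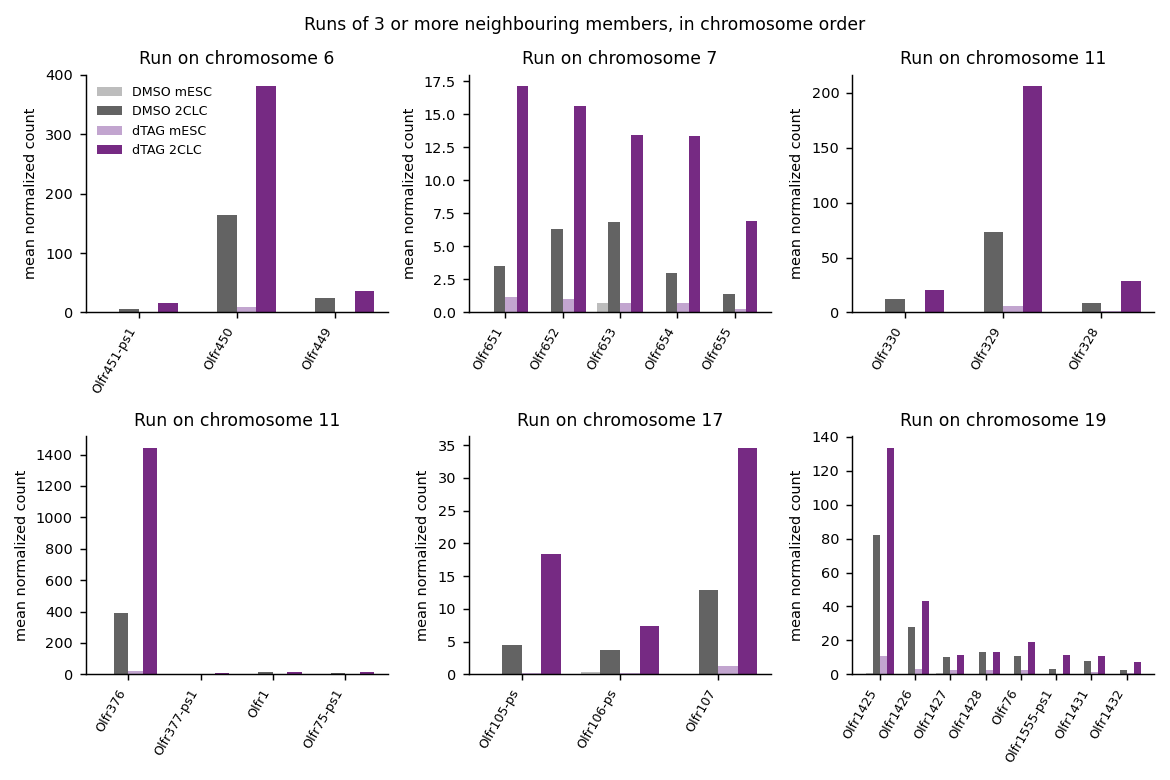
Authors' mean normalized count in the 4 sorted populations for the 6 runs that hold 3 or more neighbouring members, in chromosome order and each with its own vertical axis from 0. Bars are group means, for which no error is available. In every run the dTAG 2CLC bar of each gene is the tallest except for Olfr1428, whose DMSO 2CLC mean of 13.0 is just above 12.9.

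Start sites were compared with RefSeq, which gives 46 of the members a sequence around the start (assembly GRCm38.p6). For 29 of these the RefSeq model begins at the start codon, and 41 of the 46 upstream windows overlap exons of the same gene in GENCODE vM21, so most RefSeq windows are not promoters of the transcripts counted here. In 4 genes the RefSeq start lies within 25 bases of the GENCODE start: Olfr1506, Olfr1565, Olfr374 and Olfr330. The bases before the GENCODE start are shown for 3 of them, with a TAATTA homeodomain core in capitals. They were chosen because their start sites are the best placed, not for their values.
Olfr1506 (chr2:90224494-90224721, minus strand): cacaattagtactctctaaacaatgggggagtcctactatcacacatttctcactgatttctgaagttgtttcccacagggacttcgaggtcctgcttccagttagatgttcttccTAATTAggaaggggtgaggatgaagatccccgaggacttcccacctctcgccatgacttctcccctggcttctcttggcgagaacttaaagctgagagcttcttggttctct
Olfr374 (chr8:72106790-72107039, plus strand): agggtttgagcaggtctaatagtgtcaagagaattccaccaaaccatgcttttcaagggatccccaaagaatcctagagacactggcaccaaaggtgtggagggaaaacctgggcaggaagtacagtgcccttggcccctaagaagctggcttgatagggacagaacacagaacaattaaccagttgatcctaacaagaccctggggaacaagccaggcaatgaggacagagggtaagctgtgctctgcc
Olfr330 (chr11:58534837-58535075, minus strand): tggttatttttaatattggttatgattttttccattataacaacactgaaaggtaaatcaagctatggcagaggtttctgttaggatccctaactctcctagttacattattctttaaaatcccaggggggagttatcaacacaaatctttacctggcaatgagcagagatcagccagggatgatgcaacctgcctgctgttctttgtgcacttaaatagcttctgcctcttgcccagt
The 228 bases before Olfr1565 equal those before Olfr1506 at all 228 positions, and the 927 coding bases of both genes are equal too, so these 2 genes cannot be told apart in their start region or coding part.

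Over the 250 bases upstream of the RefSeq starts, searched on both strands, 8 of 46 members (17.4%) held TAATTA, a homeodomain core, beside 4.85% of 32817 genes and 18.0% of 948 Olfr genes. TATAAA was present in 12 of 46 members (26.1%), 12.4% of all genes and 39.2% of Olfr genes. GGATTA, the core of OTX and OBOX factors, was present in 1 of 46 members (2.17%), 6.25% of all genes and 9.81% of Olfr genes. A DUX-type motif (TGATT and AATCA split by 1 base) was in 0 of 46 members and 0.0305% of all genes, and an EBF-type motif (TCCC and GGGA split by 2 bases) in 0 of 46 and 0.78%. None of the 5 motifs contains another. The members' windows had a median GC content of 34.8%, beside 34.0% for Olfr genes and 52.4% for all genes. A match or its absence in these windows describes the letters and says nothing about binding.

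The time course and washout libraries did not enter the choice of members. These tables also hold group means only, normalized apart from each other and from the sorted table, so levels can be set side by side but not tested. Olfr376 had a mean of 0 with DMSO and 7.03 with dTAG at 24 h, and 0.901 and 21.8 at 7 d. In the washout experiment it was at 0.651 with DMSO for 15 d, 42.1 with dTAG for 15 d, and listed at 0 in Recovery. It was the member with the largest dTAG mean among those near 0 with DMSO, at each of the 3 times.

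Other leading members had the same order at lower values. Olfr815 had means of 0.986 with DMSO and 3.63 with dTAG at 24 h, 0 and 9.00 at 7 d, 0.282 and 19.2 at 15 d, and 0.929 in Recovery. Olfr787 had 0.673 and 2.83, 0.571 and 11.3, 0.326 and 11.5, and was listed at 0 in Recovery. Olfr881 had 0.337 and 1.92, 0 and 11.6, 0 and 7.50, and 0 in Recovery. Each was low in every DMSO group and in Recovery, and above them in each dTAG group.

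Olfr329 had dTAG means of 4.33, 8.31 and 10.2 at 24 h, 7 d and 15 d, with DMSO means of 0, 0.571 and 0.326 and a Recovery mean of 0.981. Olfr374 had dTAG means of 3.64, 5.59 and 11.4, with DMSO means of 0.337, 0.309 and 0.651 and a Recovery mean of 0.671. The pseudogene Olfr1369-ps1 had dTAG means of 1.06, 4.99 and 20.8, but its DMSO mean was already 5.73 at 15 d and its Recovery mean 5.34.

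The high sorted means did not carry over for every gene. Olfr450, at 381 in dTAG 2CLC, Olfr1425, at 134, and Olfr1276, at 116, were listed at 0 in all 7 time course and washout groups. Of all members 24 were at 0 in all 7 groups, and 32 in the 4 time course groups. Among the 11 members with a sorted mean over 100 it was 3 (27.3%), beside 0.376% of 11161 genes at that level. Among the 20 members between 20 and 100 it was 3 (15.0%, all genes 2.45%), and among the 39 between 5 and 20 it was 18 (46.2%, all genes 7.0%). All 8 genes of the chromosome 19 run were at 0 in the 7 groups except Olfr1431, whose highest mean there was 0.395. The genes set beside the members were grouped by their highest mean in any sorted population. They thus include genes high in GFP-negative cells and are not matched to the members. Sorting, library kit, cell line and normalization all differ between these tables and the sorted one and cannot be told apart.

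**Figure D4:**
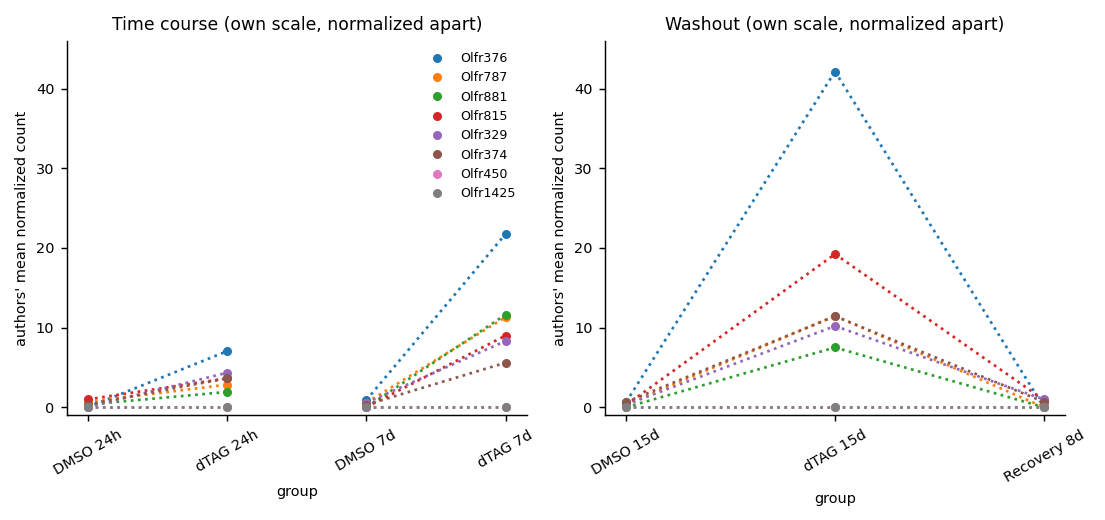
Authors' mean normalized count of 8 leading members in the time course (left) and the washout experiment (right). Dotted lines join the groups that are compared, and no error is available. Olfr376 is highest in each dTAG group (7.03, 21.8 and 42.1) and at 0 in Recovery, while Olfr450 and Olfr1425 are both at 0 throughout and overlie each other.

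At 24 h of dTAG, 11 of 70 members were at least 2-fold higher and 0 lower, beside 4.56% and 2.82% of 20447 genes. In the time course and washout comparisons members were counted at any mean, while the genes beside them had a mean of at least 5. The counts and shares are thus not matched. Only 9 members reached a mean of 5 in either group, and among these Olfr376 (log2 3.01) was past the fold. At 7 d, 15 members were higher and 2 lower, beside 6.51% and 5.25% of 20549 genes, and of the 13 at a mean of 5 or more 7 were higher and 2 lower. Most of these 7 reached a mean of 5 with dTAG only. Their direction thus follows largely from that limit, and nothing is read from it. The 5 largest log2 differences were those of Olfr881 (3.66), Olfr376 (3.58), Olfr815 (3.32), Olfr787 (2.97) and Olfr329 (2.57). The lower 2 were Olfr1344 (-1.26) and Olfr1372-ps1 (-1.18), which was lower with dTAG in both sorted populations as well. Between the DMSO groups of 7 d and 24 h 1 member was higher and 0 lower, beside 1.27% and 2.19% of 20105 genes. Of the members 44 were at 0 in both DMSO groups and 7 reached a mean of 5, so few could pass the fold. This comparison therefore gives no background for the dTAG counts.

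At 15 d, 13 members were higher with dTAG and 0 lower, beside 6.72% and 1.11% of 19685 genes, and of 12 members at a mean of 5 or more 8 were higher. Olfr376 (log2 4.71), Olfr815 (3.98), Olfr787 (3.23), Olfr881 (3.09) and Olfr329 (3.08) led again. After washout, 2 members were at least 2-fold above DMSO and 1 under it, beside 2.14% and 1.52% of 19108 genes, and of 5 members at a mean of 5 or more 0 were past the fold. Against 15 d of dTAG, 1 member was higher in Recovery and 14 lower, beside 1.78% and 8.11% of 19728 genes. Of the 12 at a mean of 5 or more, 8 were lower, led by Olfr376 (-5.43), Olfr787 (-3.64), Olfr815 (-3.39), Olfr881 (-3.09) and Olfr374 (-2.89). Most of the 8 higher with dTAG at 15 d and of the 8 lower in Recovery reached a mean of 5 with dTAG only. The direction of both counts thus follows largely from that limit, and nothing is read from it. The 3 comparisons of the washout experiment share their groups, so they are not independent of each other.

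A few members had counts in every group of unsorted cells. Olfr482 lay between 100.2 and 152 in all 7 groups. Gm44870, which it covers on the same strand, lay between 69.2 and 115 there, so the counts cannot be assigned to Olfr482 alone. Olfr1388 had DMSO and dTAG means of 99.2 and 132 at 24 h, 135 and 69.7 at 7 d, and 80.9 and 49.5 at 15 d, and 86.2 in Recovery. Olfr985 lay between 18.0 and 73.0. Olfr1372-ps1 had 77.4 and 55.4, 79.3 and 34.5, and 72.2 and 84.7, and 112 in Recovery. These 4 genes made up most of the members' sum, which was 334.49 and 429.19 at 24 h, 399.48 and 417.8 at 7 d, 349.03 and 464.83 at 15 d, and 427.11 in Recovery, always DMSO before dTAG. Hence a sum over the members hides the genes that were near 0 with DMSO. Olfr814 had means of 6.86 and 13.9 at 24 h and 8.09 and 20.7 at 7 d, and it shares part of its sequence with Olfr815.

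In the same groups the 2-cell list had 17 of 17 genes at least 2-fold higher with dTAG at each of the 3 times and 17 of 17 lower in Recovery than after 15 d of dTAG. MERVL-int had means of 5300 and 28800 at 24 h, 5070 and 80300 at 7 d, 5620 and 147000 at 15 d, and 11000 in Recovery. As for Olfr376, the mean with dTAG was above that with DMSO at each time and was highest at 15 d. The share of 2-cell-like cells in each culture was not measured in these tables, and its part in the members' values was not tested. The feeder genes had sums from 1040 in Recovery to 3480 with dTAG for 15 d, with 1 of 8 higher with dTAG at 7 d, 1 lower at 24 h and 0 past the fold at 15 d. Of 7 feeder genes at a mean of 5 or more, 6 were lower in Recovery than with dTAG for 15 d (median log2 difference -1.4) and 4 were lower than with DMSO (-1.22), and their part in the Recovery values of the members was not tested. Ehmt2 mRNA was 616 and 609 at 24 h, 622 and 582 at 7 d, and 691 and 557 at 15 d, which does not check the removal of the protein.

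The Dppa4 experiment is the only one with values for each library. Whole reads could be recovered from them, with 8399885 to 12710949 gene reads per library. Dppa4 itself had 602 to 1053 reads in each of the 6 WT libraries and 0 reads in each of the 6 KO libraries. Zscan4c had 27, 87 and 712 reads in WT with DMSO, 214, 236 and 2324 with UNC0638, and 0 in every KO library. MERVL-int was likewise uneven, at 2200, 4360 and 12600 normalized counts in WT with DMSO, 14600, 12300 and 53600 with UNC0638, and 444 to 1410 in the 6 KO libraries.

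Only 5 of the 70 members passed the expression filter and could be tested: Olfr77, Olfr482, Olfr985, Olfr1388 and Olfr1372-ps1. The first 4 are among the 8 members that were not higher in 2CLC, so of the genes that were higher there Olfr1372-ps1 alone was tested. A gene was called when the limma adjusted p was under 0.05 and the log2 fold change at least 1 in size, over 17258 genes. With UNC0638 in WT 0 members were called, as were 0.0% of genes higher and 0.0% lower. In KO, UNC0638 called 0 members, beside 0.411% of genes higher and 0.0521% lower. For KO against WT, 0 members were called in DMSO, beside 1.33% higher and 3.1% lower, and 0 with UNC0638, beside 0.973% and 2.31%. For the difference of the UNC0638 effect between KO and WT, 0 members and 0.0% of genes in either direction were called. In these 5 limma comparisons 0 members had an unadjusted p under 0.05, and edgeR and DESeq2 also called 0 members (DESeq2 gave no adjusted p to a member for the last of them), while DESeq2 called 14 genes with UNC0638 in WT.

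Olfr1388 had normalized counts of 27.9, 29.5 and 32.3 in WT with DMSO and 70.4, 49.5 and 51.9 with UNC0638. In KO it had 40.1, 29.5 and 37.1 with DMSO and 53.3, 50.5 and 5.24 with UNC0638. The WT groups did not overlap, and 1 KO library with UNC0638 stood far under the others. The log2 fold change with UNC0638 was 0.90 ± 0.61 (SE, limma adjusted p = 0.617) in WT and -0.49 ± 0.61 (limma adjusted p = 0.7533) in KO. The sign in KO rests on the library at 5.24: without it, KO with UNC0638 replicate 3, the value was 0.54 (limma adjusted p = 0.4809), and edgeR and DESeq2 on all libraries gave 0.03. Between KO and WT with UNC0638 it was -1.15 ± 0.61 (limma adjusted p = 0.3056). The UNC0638 effect differed between KO and WT by -1.38 ± 0.86 (SE, limma adjusted p = 0.7762).

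Olfr1372-ps1 had 38.4, 29.5 and 22.7 in WT with DMSO, 21.1, 43.0 and 35.1 with UNC0638, 7.83, 8.15 and 15.1 in KO with DMSO, and 16.6, 65.6 and 1.75 in KO with UNC0638. The DMSO groups of WT and KO did not overlap, and the last group spanned all the others. KO against WT in DMSO gave a log2 fold change of -1.49 ± 0.81 (SE, limma adjusted p = 0.2772). Olfr482 had group means of 29.1 ± 8.15 (SD, n = 3) in WT with DMSO, 43.4 ± 11.3 with UNC0638, 18.5 ± 8.02 in KO with DMSO and 26.9 ± 0.909 with UNC0638. Because it covers Gm44870 on the same strand, its test is no test of Olfr482 alone.

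Olfr985 spread widely between libraries of a group, at 25.6, 44.3 and 85.7 in WT with DMSO and 11.7, 33.6 and 92.9 in KO with DMSO. Olfr77 had 54, 42 and 78 reads in WT with DMSO, and Gm7808, its opposite-strand neighbour, had the same number of reads in each of the 12 libraries. The test of Olfr77 is thus no test of that gene apart from Gm7808. Olfr77 ranged from 39.1 to 76.8 normalized counts over all libraries.

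The other 65 members were close to the counting limit. Together they had 1, 19 and 35 reads in WT with DMSO, 26, 46 and 109 in WT with UNC0638, 12, 7 and 16 in KO with DMSO, and 19, 30 and 11 in KO with UNC0638. As normalized counts the sums were 18.4 ± 15.3 (SD, n = 3), 51.0 ± 32.8, 12.5 ± 5.8 and 19.8 ± 11.5. The range of WT with UNC0638 overlapped those of WT with DMSO and KO with UNC0638 and lay above that of KO with DMSO. Between WT libraries of the same number the sum was higher with UNC0638 in 3 of 3, although the labels do not say that a number marks a shared clone, and replicate 3 gave the highest WT value in both treatments, as it did for Zscan4c and MERVL-int. A read in at least 1 library was found for 12 of the 65 in WT with DMSO, 29 in WT with UNC0638, 3 in KO with DMSO and 10 in KO with UNC0638. There were 15 members with reads in WT with UNC0638 and in no other group, and 35 members had none in any library. Replicate 3 of WT with UNC0638 alone had a read for 25 of the 65. The share of all genes at such low counts with reads in 1 group only was not computed, so these counts describe the list.

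The leading 2CLC members were among those with WT reads only. Olfr376 had 0, 11 and 26 reads in WT with UNC0638 and 0 in the other 9 libraries. Olfr450 had 0, 1 and 14 reads in WT with UNC0638, 0, 0 and 1 with DMSO, and 0 in all 6 KO libraries. Olfr787 had 2, 0 and 7 reads with UNC0638, 0, 0 and 7 with DMSO, and 0 in KO. For these 3 genes replicate 3 held most of the reads. Counts of 0 in the 3 libraries of a group allow up to 3 reads in all, so at these depths the difference between WT and KO was not detectable for most members. Without the expression filter limma called 2 of them, Olfr1494 and Olfr699, lower in KO than in WT with UNC0638. In that setting 35 members were tested, and of 30115 genes 536 were called lower and 137 higher. Olfr1494 had 3, 7 and 14 reads in WT with UNC0638 and 0 in KO, and Olfr699 had 4, 1 and 2 reads and 0 in KO. Their log2 fold changes were -2.80 (limma adjusted p = 0.01418) and -1.50 (limma adjusted p = 0.04662) over 30115 genes, and edgeR without the filter called 0 members.

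**Figure D5:**
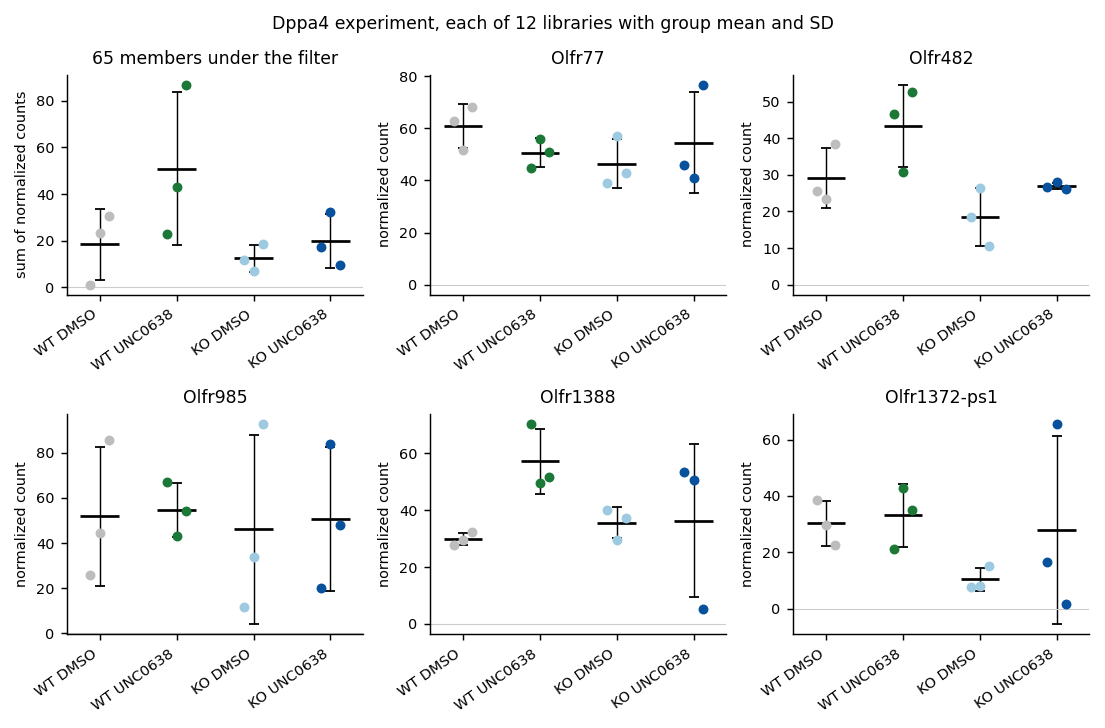
Normalized counts in each of the 12 libraries of the Dppa4 experiment, 3 per group, with the group mean (line) and SD (error bar). The first panel sums the 65 members under the expression filter and the others show the 5 tested members. In the first panel WT with UNC0638 has a mean of 51.0 and the widest spread, and in the other panels the groups overlap for most genes.

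In these libraries 14 genes of the 2-cell list were tested. With UNC0638 in WT 0 of them were called, with log2 fold changes from 1.48 (Zscan4b) to 3.55 (Zfp352) and a lowest limma adjusted p of 0.5634. In KO 0 were called, with log2 fold changes from -0.92 (Sp110) to 0.72 (Usp17la). For the difference of the UNC0638 effect between KO and WT 0 were called. Against WT, 10 were lower in KO in DMSO and 14 with UNC0638. The feeder list had 6 genes tested and 0 called in any of the 5 comparisons.

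Genes of olfactory signalling were mostly not past the fold. Olfactory receptors signal through the G protein encoded by Gnal, the adenylyl cyclase Adcy3 and a cyclic nucleotide-gated channel with the subunits Cnga2, Cnga4 and Cngb1. Of 16 transduction genes, 10 reached a mean of 5 for 2CLC against mESC in DMSO, and 0 were higher and 2 lower. Adcy3 had means of 154 in DMSO mESC, 120 in DMSO 2CLC, 102 in dTAG mESC and 74.9 in dTAG 2CLC, and Gnal had 42.4, 29.2, 38.1 and 21.7. Cnga2 was at or under 0.405 in every sorted population. Between dTAG and DMSO in 2CLC 0 of 11 were higher and 1 lower, and it was Grk3, a receptor kinase, at 135 and 56.5. The phosphodiesterase Pde1c was higher with dTAG at 7 d (3.67 and 50.2) and at 15 d (1.61 and 61.2), and was at 3.20 in Recovery. At 7 d it was the 1 gene of 11 that was higher, and 3 were lower: Cngb1 (47.5 and 22.3), Gnal (53.7 and 25.5) and Pde4a (364 and 169).

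Receptor transport to the cell surface needs RTP1 and RTP2. Rtp1 was listed at 0 in all 4 sorted populations and Rtp2 stayed at or under 2.77, while Reep1 had means from 63.4 to 182. In the Dppa4 experiment Rtp2 had means of 7.87 with DMSO and 25.8 with UNC0638 in WT, and 0 and 10.3 in KO. Its log2 fold changes with UNC0638 were 2.33 in WT (limma adjusted p = 0.5634) and 3.43 in KO (limma adjusted p = 0.09596), and neither was called. Among 12 markers of olfactory sensory neurons, 5 reached a mean of 5 and 0 were higher in 2CLC in either treatment. At 7 d of dTAG 0 of 6 were higher and 3 lower, namely Cngb1, Gnal and Gfy (18.7 and 2.44). Omp, the olfactory marker protein gene, had means from 7.33 to 22.2 in the sorted populations.

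Of 13 genes known for receptor choice and silencing, 2 were higher with dTAG in mESC, 1 in 2CLC, 1 at 24 h, 1 at 7 d and 2 at 15 d. Ebf4 was lower at 24 h (23.1 and 6.08), and 0 were lower in the other 4. Over all genes 4.56% to 7.41% were higher in these comparisons. At 15 d the 2 higher genes were Ebf1 (125 and 256) and Ebf2 (30.6 and 135), which code for factors that bind Olfr promoters. Lhx2, another such factor, had 27.9 in DMSO mESC and 53.2 in DMSO 2CLC, which is not past the fold. For 2CLC against mESC in DMSO, 2 of 12 genes of this list were higher and 1 lower, beside 19.0% and 9.61% of all genes. The lower one was Ldb1 (1540 in DMSO mESC and 769 in DMSO 2CLC). Ehmt1 had means from 472 to 530 in the sorted populations. In the Dppa4 experiment limma called 2 genes of these lists for KO against WT in DMSO: Omp was lower, with a log2 fold change of -2.52 ± 0.64 (SE, limma adjusted p = 0.02712), and Grk3 was higher, with 1.25 ± 0.36 (limma adjusted p = 0.04739). For the other 4 comparisons 0 genes of the olfactory lists were called.

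Other chemoreceptor families gave a mixed picture. Of 350 Vmn1r genes, 12 reached a mean of 5 for 2CLC against mESC in DMSO and all 12 were higher, beside 19.0% of 20783 genes. Most of the 12 reached that mean in DMSO 2CLC only, so their direction follows largely from the limit. Vmn1r227 had means of 0.974, 126, 14.1 and 261 in DMSO mESC, DMSO 2CLC, dTAG mESC and dTAG 2CLC, and Vmn1r88 had 40.8, 974, 111 and 2420. Of 241 Vmn2r genes, 21 reached a mean of 5 and 10 were higher in 2CLC, beside the same 19.0% of all genes. Vmn2r12 had sorted means of 2.61, 262, 18.4 and 402 and, like Olfr450, was listed at 0 in all 7 time course and washout groups. The trace amine receptors (Taar, 16 genes) and the Fpr-rs genes (5) did not reach a mean of 5 in any sorted population. Of 40 bitter receptor genes (Tas2r), Tas2r107 reached 5, at 6.09 in dTAG 2CLC. These counts carry no test and were not set against the Olfr genes by any.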

How the data were processed

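RNA-seq of mouse ESCs was reused from the tables that the authors deposited. Per the labels and the study's methods, the authors trimmed reads with Trim Galore 0.6.7, aligned them to mm10 with STAR 2.7.10 (introns not allowed, a read with many matches written to 1 random place), counted GENCODE vM25 genes and repeats with TEcounts at default settings, and normalized with DESeq2 1.34.0 in R 4.1.0. The strand option of the counting is not given in the sources used here. The deposited signal values are counts divided by size factors: values per library for the Dppa4 experiment, and only group means for the other 3 experiments. Further deposited tables hold the authors' own comparisons (fold changes and p-values) and were not used. Genome positions are from GENCODE vM21 (GRCm38), an earlier release than the authors', and upstream sequences are from RefSeq.

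For group means, log2 ratios were taken after adding 1, with no error, n or test, and the depth behind them is unknown. Background shares cover genes with a mean of at least 5 in a compared group, while members were counted at any mean unless stated. For the Dppa4 experiment, 100% of values were whole reads within 0.01 read. limma 3.58.1 with a trend was fitted to log2(normalized count + 1) of 12 libraries in 4 groups, for genes passing the edgeR 4.0.16 filterByExpr rule, with Benjamini-Hochberg adjustment over 17258 genes. The labels name 3 independent clones per line, and p-values measure the spread between these libraries. On simulated data this fit found 191 of 200 genes changed 4-fold for UNC0638 against DMSO in WT, with 5 false calls, and 156 for the difference of that effect between KO and WT, with 7 false calls, over 17258 genes. The simulated dispersion was 0.05. Larger spreads, such as that of Zscan4c in WT, were not simulated. Alternatives were edgeR and DESeq2 1.42.0 on the recovered reads, TMM scaling, no filter, other pseudocounts, a replicate block, leaving out each library, a threshold of 10, and a 4-fold limit.

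Members and gene lists were chosen with earlier results of these data known. The genes named are the 20 members with the highest sorted means, members called in the Dppa4 experiment, the 5 largest differences per comparison and direction at a mean of 5 or more, the 3 genes on either side of the threshold, pathway and 2-cell genes that were called or past the fold at a mean of 50 or more, and the members of the longest runs. The lists were mESC, 2-cell, feeder fibroblast, olfactory sensory neuron, transduction, receptor trafficking, receptor choice and silencing, and other chemoreceptor families. Other genes were named after their values were seen, as overlapping or near-identical genes, as values near 0 of defining markers, or as examples of a list.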

Additional observations from a re-analysis of the deposited data

How the results depend on the processing

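The share of members at least 2-fold higher in the group means moved with the pseudocount and with the fold limit. With a pseudocount of 5 in place of 1 it went from 88.6% to 55.7% for 2CLC against mESC in DMSO, and to 8.57% for dTAG against DMSO in mESC, 27.1% in 2CLC (from 48.6%), 1.43% at 24 h, 7.14% at 7 d and 10.0% at 15 d. It was 0.0% for DMSO at 7 d against 24 h, Recovery against DMSO and Recovery against dTAG. With 0.5 it was 54.3% for dTAG against DMSO in mESC and 8.57% for DMSO at 7 d against 24 h. At a limit of 4-fold it was 70.0% for 2CLC against mESC in DMSO, 74.3% with dTAG, 12.9% for dTAG against DMSO in mESC, 4.29% in 2CLC, 2.86% at 24 h, 8.57% at 7 d, 10.0% at 15 d, and 0.0% for DMSO at 7 d against 24 h and both Recovery comparisons. With a member threshold of 10 it was 0.0% for both Recovery comparisons. A larger pseudocount and a higher limit both lower these shares by construction.

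In the Dppa4 experiment 0 members were called under each alternative, leaving out any 1 library included (lowest 0, highest 0), except without an expression filter, where limma called 2 members lower in KO than in WT with UNC0638. Without the filter limma called 536 of 30115 genes lower in that comparison. edgeR without a filter, chosen after seeing the data, called 0. With a replicate block 0 members were called in the 3 comparisons it allows, and all genes called with UNC0638 in KO went from 80 to 155. KO against WT cannot be estimated within a clone. In WT every library correlated best with its own number (0.246, 0.103 and 0.431), in KO not (0.154, -0.0923 and 0.0129). No paired analysis was possible for the group means, because they carry no libraries.

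Depth limits the Dppa4 experiment to 5 testable members, and the 65 others had 1 to 109 reads per library in all. The group means carry no error.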
